A study of Mus musculus with 10 samples.

Results

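The mouse major histocompatibility complex (MHC), the H2 gene cluster of chromosome 17, was profiled by Methyl-seq in lung DNA. All windows of 1000 bp, laid out every 500 bp, on the stretch of chromosome 17 (mm10) that holds the cluster were taken, whatever their methylation, provided that every mouse had at least 20 CpG calls. The first started at base 33900001 and the last ended at base 37278500. These were 1663 of the 421759 windows of the genome that passed the same minimum, and 1739 of 446336 before it. Windows of the region touched 219 RefSeq genes. The lungs came from female BALB/c mice, purchased at 8 weeks of age, in 3 groups. Saline mice (n = 3) received saline only, OVA mice (n = 3) were sensitized with ovalbumin and alum and challenged with ovalbumin through the nose, and DSE mice (n = 4), labelled as herb treated, received the same ovalbumin regime and an oral ethanol extract of Descurainia sophia seeds. No group received the extract without ovalbumin. OVA vs. saline addressed the asthma model, DSE vs. OVA the extract, and DSE vs. saline the distance left to the control. The comparisons share mice, so each is given by its own values.

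The MHC holds 3 classes of genes. Class I genes encode the cell surface molecules that show peptides from inside the cell to cytotoxic T cells. Class II genes encode the molecules with which dendritic cells, macrophages and B cells show captured antigen to helper T cells, the step that starts allergic sensitization. Class III lies between them and holds no presenting molecules: it carries the cytokine genes Tnf, Lta and Ltb, the complement genes C2, Cfb, C4a and C4b, and heat shock genes. DNA methylation at CpG dinucleotides is usually absent from CpG-rich start sites and varies between cell types at CpG-poor ones.

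The methylation level of a window is the percentage of its CpG calls that were methylated in a mouse, and group values are means ± SD over mice. A differentially methylated region (DMR) is a window in which the pooled calls of the groups differed by at least 10 percentage points with a Benjamini-Hochberg adjusted p under 0.01 in a likelihood ratio test of the calls, adjusted over all 421759 windows. That test counts calls, not mice, so beside it stands the adjusted p from limma, fitted over all 10 mice on log2 ratios of methylated to unmethylated calls. Differences below are of pooled calls unless a mean is named. Totals were 306656737 to 410836272 calls per mouse, with overlapping windows counted again, and the median depth in the region was 573.5 calls per window and mouse. At 20 calls the 95% Wilson interval around 50% reached from 29.9% to 70.1%, and at 573 calls from 45.8% to 54.0%. Lung tissue is a mixture, so a shift in the share of a cell type and a shift within a cell type cannot be told apart. BALB/c mice carry another H2 haplotype than the C57BL/6J reference, and the class I genes are near copies of each other, and what this does to mapping was not tested. Of the 1663 windows, 375 held a stretch of 100 bases that occurs elsewhere in the region after bisulfite conversion, and 25 held copied stretches over at least 50% of their length. The label lung was not checked against cell markers, since methylation does not show expression.

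The 250 bases before the start sites of the genes that the results turn on are shown first, from RefSeq (GRCm38.p6), 5′ to 3′ along the gene with each CpG in capitals. The classical class I genes H2-K1 and H2-D1 had 9 and 14 CpGs in these stretches. For H2-K1 the stretch precedes a RefSeq promoter start that lies 272 bp downstream of the gene start used for its window. The class II genes H2-Aa, H2-Ab1 and H2-Eb1, which encode chains of the I-A and I-E molecules, had 3, 4 and 0.
H2-K1 (chr17:34000348-34000597, - strand): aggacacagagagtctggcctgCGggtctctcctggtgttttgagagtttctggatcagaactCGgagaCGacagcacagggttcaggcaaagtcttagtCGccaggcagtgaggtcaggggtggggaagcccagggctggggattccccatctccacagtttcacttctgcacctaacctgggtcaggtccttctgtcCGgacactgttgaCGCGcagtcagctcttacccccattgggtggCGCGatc
H2-D1 (chr17:35262844-35263093, + strand): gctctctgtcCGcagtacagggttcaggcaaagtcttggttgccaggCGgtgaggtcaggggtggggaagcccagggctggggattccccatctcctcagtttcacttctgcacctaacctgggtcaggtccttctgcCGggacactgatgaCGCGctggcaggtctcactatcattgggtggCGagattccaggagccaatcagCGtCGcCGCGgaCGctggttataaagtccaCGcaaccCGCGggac
H2-Aa (chr17:34287824-34288073, - strand): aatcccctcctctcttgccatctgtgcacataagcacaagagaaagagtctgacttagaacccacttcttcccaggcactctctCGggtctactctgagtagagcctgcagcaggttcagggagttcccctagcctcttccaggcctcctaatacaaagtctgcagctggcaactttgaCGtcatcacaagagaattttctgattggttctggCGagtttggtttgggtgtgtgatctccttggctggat
H2-Ab1 (chr17:34262977-34263226, + strand): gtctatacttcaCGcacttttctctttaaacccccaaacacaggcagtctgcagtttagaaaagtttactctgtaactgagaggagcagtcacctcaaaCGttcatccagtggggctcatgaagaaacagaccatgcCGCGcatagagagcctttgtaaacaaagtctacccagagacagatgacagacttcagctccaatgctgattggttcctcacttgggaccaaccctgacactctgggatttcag
H2-Eb1 (chr17:34305617-34305866, + strand): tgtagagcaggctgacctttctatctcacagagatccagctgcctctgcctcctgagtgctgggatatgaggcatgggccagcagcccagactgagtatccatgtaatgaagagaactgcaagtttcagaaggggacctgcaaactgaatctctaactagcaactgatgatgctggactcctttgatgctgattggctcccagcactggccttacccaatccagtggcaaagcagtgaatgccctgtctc

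In the class III cytokine genes Tnf and Ltb the same stretches held 10 and 6 CpGs. Lst1, a leukocyte gene beside them, held 1, and C2 and Notch4 held 4 each. Mdc1, a DNA damage response gene between the classes, held 19.
Tnf (chr17:35202008-35202257, - strand): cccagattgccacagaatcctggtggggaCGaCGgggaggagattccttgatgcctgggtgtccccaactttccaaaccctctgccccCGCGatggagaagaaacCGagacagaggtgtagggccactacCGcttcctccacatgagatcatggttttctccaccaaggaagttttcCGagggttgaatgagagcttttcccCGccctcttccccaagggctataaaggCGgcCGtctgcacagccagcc
Ltb (chr17:35194257-35194506, + strand): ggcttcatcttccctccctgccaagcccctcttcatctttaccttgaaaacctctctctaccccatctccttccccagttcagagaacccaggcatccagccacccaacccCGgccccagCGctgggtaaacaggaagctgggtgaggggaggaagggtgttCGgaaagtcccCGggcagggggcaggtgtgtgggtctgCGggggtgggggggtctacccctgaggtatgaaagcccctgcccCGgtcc
Lst1 (chr17:35188441-35188690, - strand): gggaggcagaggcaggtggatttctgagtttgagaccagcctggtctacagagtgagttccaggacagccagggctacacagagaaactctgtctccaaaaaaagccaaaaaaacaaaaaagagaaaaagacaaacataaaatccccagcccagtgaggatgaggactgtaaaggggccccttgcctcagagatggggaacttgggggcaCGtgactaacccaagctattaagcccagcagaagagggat
C2 (chr17:34882101-34882350, - strand): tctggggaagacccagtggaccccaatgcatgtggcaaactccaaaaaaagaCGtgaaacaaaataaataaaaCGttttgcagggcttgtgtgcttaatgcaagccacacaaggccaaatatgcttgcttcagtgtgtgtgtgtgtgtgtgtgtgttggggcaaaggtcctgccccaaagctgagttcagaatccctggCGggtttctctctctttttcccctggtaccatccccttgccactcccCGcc
Notch4 (chr17:34564045-34564294, + strand): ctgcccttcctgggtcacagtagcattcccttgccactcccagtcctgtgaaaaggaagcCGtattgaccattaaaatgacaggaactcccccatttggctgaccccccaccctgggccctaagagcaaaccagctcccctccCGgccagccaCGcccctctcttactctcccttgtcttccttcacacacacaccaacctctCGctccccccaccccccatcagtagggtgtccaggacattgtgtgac
Mdc1 (chr17:35841248-35841497, + strand): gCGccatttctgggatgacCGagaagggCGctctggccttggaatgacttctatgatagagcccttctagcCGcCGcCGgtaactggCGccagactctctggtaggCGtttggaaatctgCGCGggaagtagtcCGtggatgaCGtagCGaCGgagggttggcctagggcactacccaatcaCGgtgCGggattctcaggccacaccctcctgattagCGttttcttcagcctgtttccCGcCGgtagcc

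A stretch of 240 bases from the window upstream of the myelin gene Mog that differed between DSE and OVA mice held 7 CpGs and is shown on the plus strand.
Window upstream of Mog (chr17:37029001-37029240, + strand): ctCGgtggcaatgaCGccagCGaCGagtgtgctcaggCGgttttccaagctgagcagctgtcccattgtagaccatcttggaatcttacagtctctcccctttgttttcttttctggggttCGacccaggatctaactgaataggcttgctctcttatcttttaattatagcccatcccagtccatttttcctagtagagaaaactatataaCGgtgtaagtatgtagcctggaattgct

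Promoters of 300 bases (250 before to 50 after the start) were searched for 2 short motifs on both strands. A gene counts where any of its promoters in the RefSeq table holds the motif. The kappa B-like element GGGATTCCC was found in 4 of 22 class I genes with a RefSeq promoter (H2-K1, H2-D1, H2-Q6 and H2-Q7), in 0 of 8 class II genes and in 0 of 5 genes of the Tnf neighbourhood, against 112 of 27025 genes in all (0.414%). The CCAAT box, for which CCAAT was read on either strand, was found in 19 of 22 class I, 8 of 8 class II, 3 of 4 antigen processing and 0 of 5 Tnf neighbourhood genes, against 41.1% of all genes. A match of letters is a description of the sequence. The median promoter of the genome held 7 CpGs in 300 bases. Over the 27 listed MHC genes that had both a promoter entry and a window at the start site, Spearman's rho between CpGs and the saline methylation level was -0.569, and over the 1663 windows, which overlap each other, it was -0.391. Among the 27, the promoters of H2-DMa, H2-DMb2, H2-K1 and Lta lay 3139, 2020, 272 and 227 bp from the start used for the window. Tap1 and Psmb9 entered with the same window.

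The region was less methylated than the genome as a whole. Its windows averaged 40.9% ± 0.29 in saline, 41.5% ± 0.22 in OVA and 41.6% ± 0.40 in DSE mice, against 51.2% ± 0.28, 52.4% ± 0.48 and 52.3% ± 0.49 over all windows. In saline mice 35.5% of its windows lay under 20% and 14.97% over 80%, against 22.3% and 22.4% of all windows. The single mice spanned 40.7% to 41.2% in saline, 41.2% to 41.6% in OVA and 41.0% to 41.9% in DSE, and the groups overlapped. By class, the saline mean was 28.4% ± 0.36 for the 105 windows of class I genes, 33.4% ± 1.38 for the 72 of class II genes, 44.2% ± 0.47 for the 54 of antigen processing genes, 42.9% ± 0.80 for the 44 of the Tnf neighbourhood and 51.6% ± 0.29 for the 58 of complement and heat shock genes. With OVA, the mean of the Tnf neighbourhood was 37.3% ± 1.59 and that of complement and heat shock genes 54.6% ± 0.87. The DSE means of these classes were 37.7% ± 1.05 and 54.9% ± 0.43. No OVA or DSE mouse overlapped the saline mice in either of these classes, while the OVA and DSE mice overlapped each other in both.

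**Figure D1:**
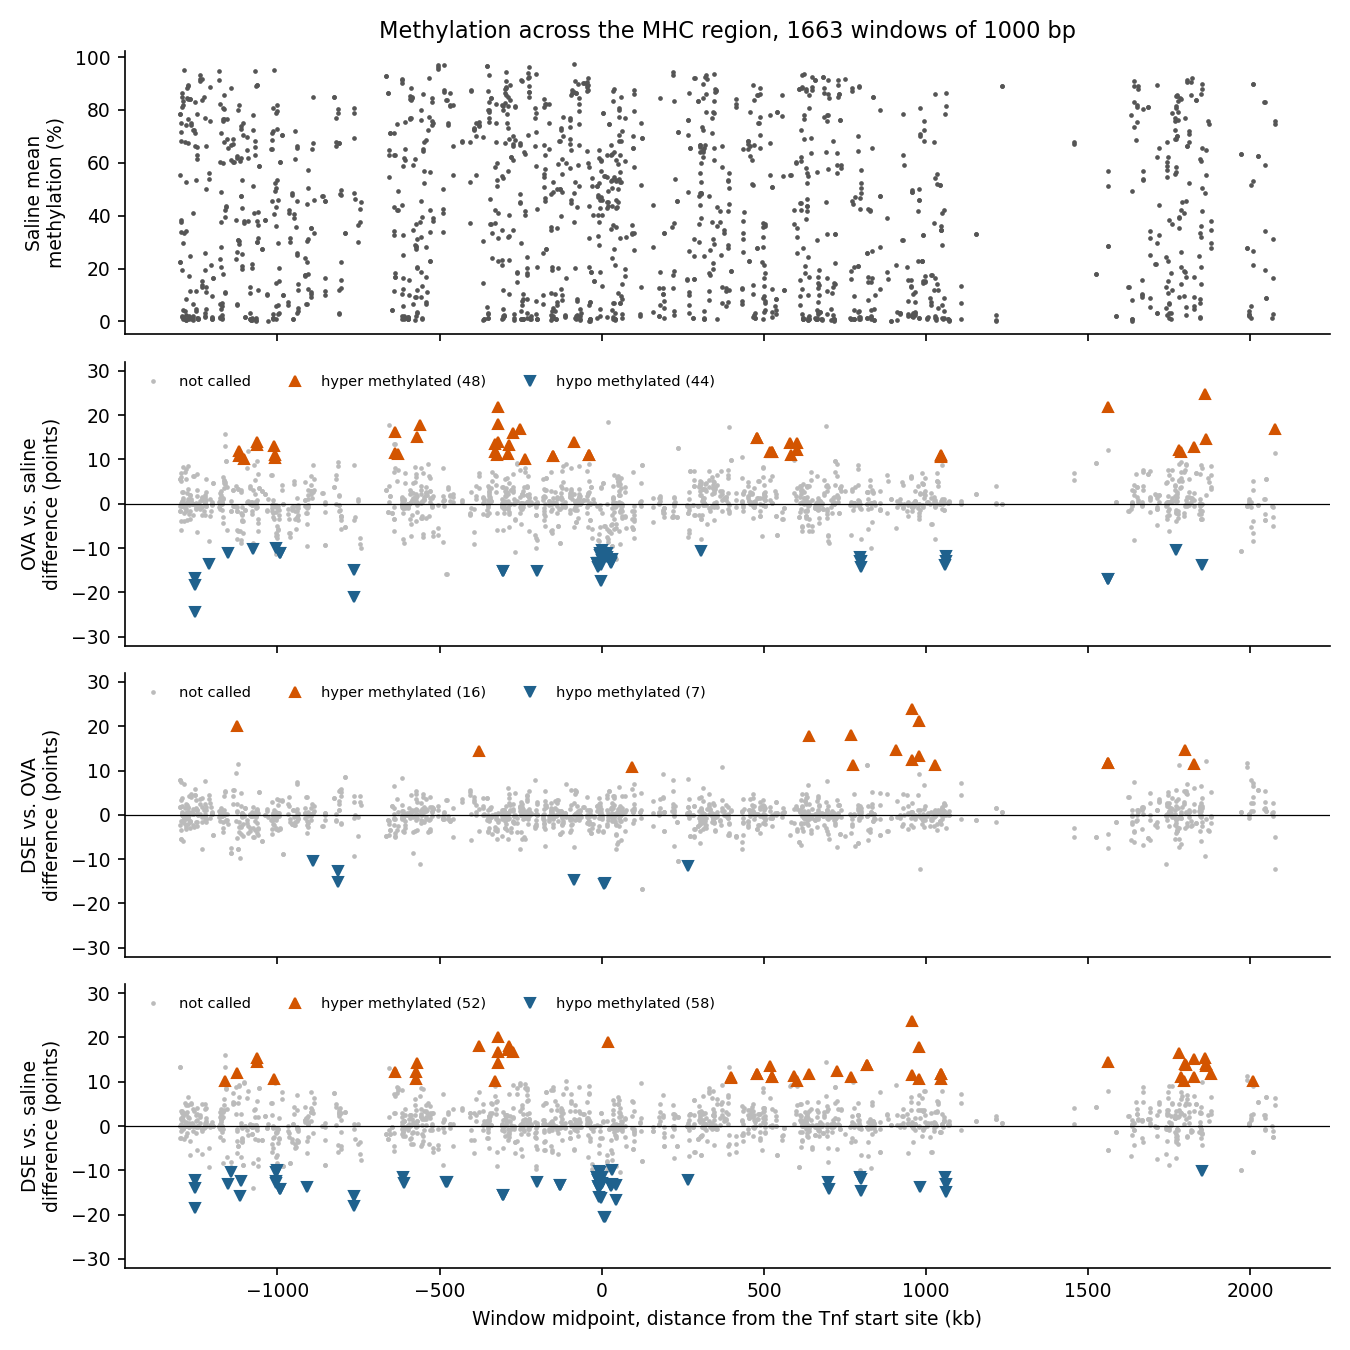
Top, mean methylation level (%) of saline mice per window. Below, the difference of pooled calls (percentage points) in OVA vs. saline, DSE vs. OVA and DSE vs. saline, each point 1 of 1663 windows, by distance (kb) from the Tnf start site. Triangles up mark the 48, 16 and 52 hyper methylated DMRs and triangles down the 44, 7 and 58 hypo methylated DMRs, with a dense group of the latter around 0 kb in both comparisons with saline.

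In OVA vs. saline, 48 windows of the region (2.89%) were hyper methylated DMRs, against 4.83% of all windows, and 44 (2.65%) were hypo methylated, against 2.60% of all windows. limma called 18 windows higher (background 2.25%) and 36 lower (background 1.49%) at an adjusted p under 0.05. In 417 windows (25.1%) each OVA mouse lay on the same side of each saline mouse, so that the groups had no overlap, against 27.05% of all windows. Over all windows, 31337 were DMRs, of which 27799 had no overlap between mice and 12274 passed limma at that threshold. Of the 92 DMRs of the region, 82 had no overlap and 44 passed limma. Overlapping windows merged to 30 hyper and 24 hypo methylated stretches.

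In DSE vs. OVA, 16 windows (0.962%) were hyper methylated (background 0.888%) and 7 (0.421%) hypo methylated (background 0.699%). limma called 8 windows higher (background 0.347%) and 0 lower (background 0.0711%). At an unadjusted limma p under 0.05, 102 were higher and 47 lower, together 149 of 1663 windows against 41647 of 421759 over the genome. The mice did not overlap in 148 windows (8.90%, background 10.26%). In DSE vs. saline, 52 windows (3.13%) were hyper methylated (background 5.02%) and 58 (3.49%) hypo methylated (background 3.09%). limma called 51 higher (background 4.58%) and 53 lower (background 2.68%). The mice did not overlap in 341 windows (20.5%, background 24.30%). The 48 hyper methylated DMRs of OVA vs. saline averaged 39.5% ± 0.92 in saline, 52.8% ± 1.36 in OVA and 50.5% ± 1.25 in DSE mice. The 44 hypo methylated DMRs averaged 58.9% ± 1.64, 45.0% ± 2.60 and 46.7% ± 2.24. The saline and OVA values of these means follow from the choice of the windows. The DSE mice took no part in it, but error in the OVA values did. DSE means somewhat nearer to saline than the OVA means can arise from that choice alone. Whether the extract moved these windows toward saline was therefore not tested. Of these 92 windows, 3 were also DMRs in DSE vs. OVA.

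**Figure D2:**
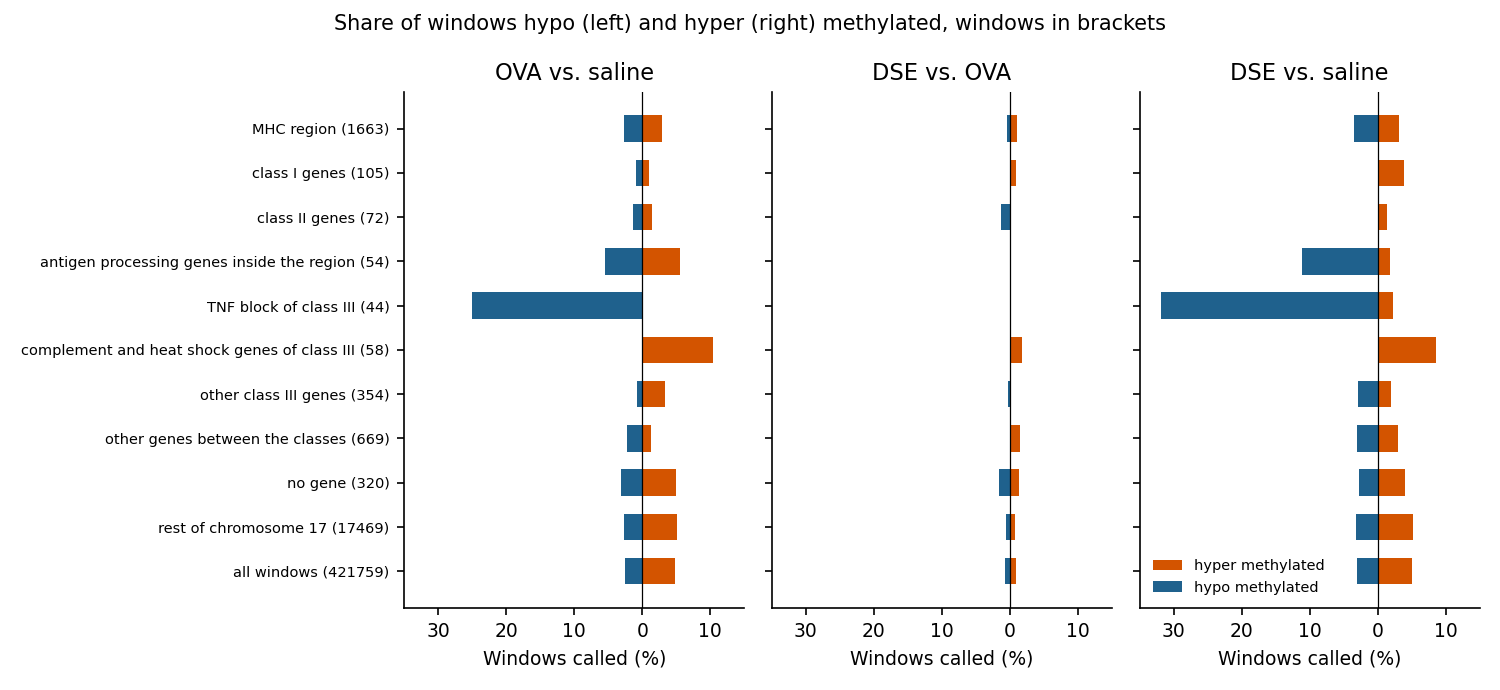
Percentage of windows called as hyper methylated (right) and hypo methylated (left) DMRs in each comparison, for the MHC region, its gene classes, the rest of chromosome 17 and all windows, with the number of windows in brackets. The Tnf neighbourhood (TNF block) had the longest hypo methylated bars against saline, 25% in OVA and 31.8% in DSE mice.

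Class I genes were lowly methylated at their start sites in all groups. In 11 of the 12 class I genes with a window at the start site, between 0.311% and 5.47% of the calls were methylated in every mouse. H2-K1, which encodes a classical class I heavy chain, had 1.53%, 0.852% and 0.889% in the saline mice, 1.31%, 0.739% and 0.942% in the OVA mice and 1.27%, 1.55%, 0.963% and 1.21% in the DSE mice. H2-D1, the other classical heavy chain with a window, had 3.05%, 3.00% and 2.87% in saline, 2.64%, 2.31% and 2.60% in OVA and 3.46%, 2.88%, 2.97% and 2.86% in DSE mice. The H2-D1 values of OVA mice lay under those of both other groups, by 0.454 points from saline (limma adjusted p = 0.316) and 0.539 points from DSE (limma adjusted p = 0.516), and neither difference passed the threshold. H2-T23, which encodes the non-classical molecule Qa-1, averaged 1.07% ± 0.19, 0.968% ± 0.14 and 1.19% ± 0.28. H2-M3, which presents formylated peptides, averaged 1.44% ± 0.12, 0.950% ± 0.19 and 1.47% ± 0.79. The exception was H2-T3, the gene of the thymus leukemia antigen of the gut epithelium, with 23.4%, 22% and 23.6% in saline, 27.6%, 27.6% and 35.0% in OVA and 25.2%, 30.3%, 30.3% and 32.3% in DSE mice. All OVA and DSE mice were above the saline mice there, by 6.96 and 6.24 points, with limma adjusted p-values of 0.139 and 0.119.

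Few class I windows were DMRs, 1 hyper and 1 hypo methylated of 105 (0.952% each, background 4.83% and 2.60%) for OVA vs. saline. DSE vs. OVA had 1 hyper methylated window (0.952%), a share near the background of 0.888%, and DSE vs. saline 4 (3.81%, background 5.02%). The window over exons 1 to 2 of the non-classical gene H2-M5 (chr17:36989001-36990000) had 40.4%, 42.3% and 44.0% in saline, 53.1%, 54.7% and 54.1% in OVA and 51.5%, 52.1%, 52.1% and 57.1% in DSE mice. It was higher in every OVA and DSE mouse than in every saline mouse, by 11.7 points in OVA (limma adjusted p = 0.0356) and 11.02 points in DSE (limma adjusted p = 0.0239). An intron window of H2-T24 (chr17:36018501-36019500), which shares its calls with the next window, had 25.3%, 24.4% and 28.4% in saline, 24.4%, 33.7% and 28.8% in OVA and 41.6%, 38.6%, 40.2% and 41.1% in DSE mice. The DSE mice stood above all others, by 13.8 points over saline (limma adjusted p = 0.0163) and 11.2 points over OVA (limma adjusted p = 0.118), at a depth of no fewer than 41 calls per mouse. The only class I DMR of DSE vs. OVA lay in exons 3 to 4 of the pseudogene H2-T-ps (chr17:36110001-36111000), 14.7 points higher in DSE mice, but the groups overlapped and the limma adjusted p was 0.375. The next window of H2-T-ps, which also covers the start of BC023719, had 3.00%, 2.82% and 2.66% in OVA and 6.57%, 4.98%, 5.22% and 7.23% in DSE mice and was the only class I window past limma there (3.24 points, limma adjusted p = 0.0341). Of 38 listed class I genes, 30 were annotated under these names and 19 had a window, and of the class I windows 62.9% held a copied stretch.

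**Figure D3:**
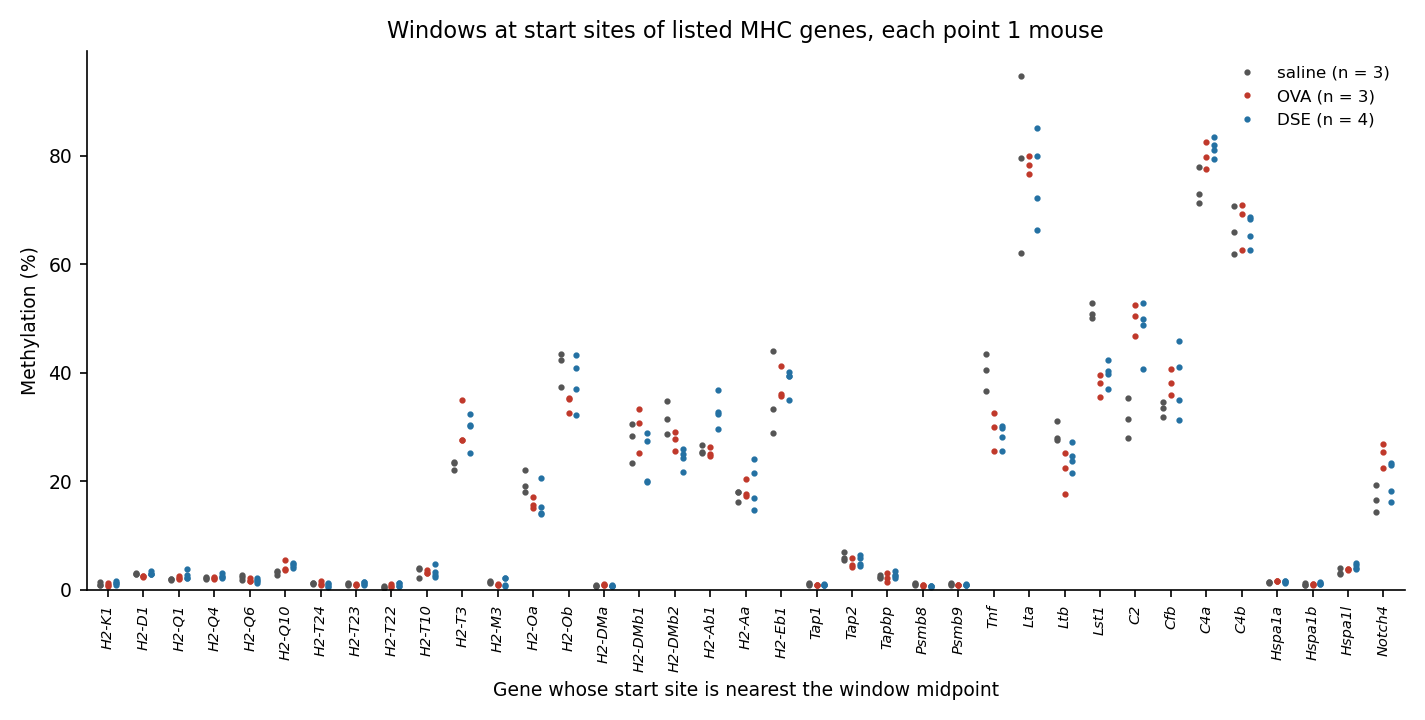
Methylation level (%) of each mouse in the window nearest the start site of 37 listed MHC genes, with saline, OVA and DSE mice side by side. Class I genes except H2-T3, antigen processing genes and heat shock genes lay lowest, class II genes other than H2-DMa lay higher, and Lst1, Tnf and C2 showed saline mice apart from the other mice. Tap1 and Psmb9 share a window.

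Class II start sites other than that of H2-DMa were methylated to intermediate levels, and none of the differences between groups at the 8 start sites passed limma or reached 10 points. The order of the saline means was H2-DMa (0.718% ± 0.16), H2-Aa (17.4% ± 1.02), H2-Oa (19.8% ± 2.13), H2-Ab1 (25.8% ± 0.77), H2-DMb1 (27.4% ± 3.71), H2-DMb2 (31.7% ± 3.09), H2-Eb1 (35.4% ± 7.70) and H2-Ob (41.0% ± 3.25). The neighbours H2-Ab1 and H2-DMb1, H2-DMb2 and H2-Eb1, and H2-Eb1 and H2-Ob differed by less than the larger of their SDs, and the other neighbours by more. The H2-DMa window sits at the most upstream start in the annotation, over exon 2 of its neighbour Brd2. H2-Ab1, the I-A beta chain gene, had 25.4%, 26.7% and 25.3% in saline, 24.7%, 25% and 26.2% in OVA and 32.4%, 36.9%, 32.9% and 29.6% in DSE mice. All 4 DSE mice were above all other mice, by 7.47 points over OVA and 6.99 points over saline, which is under the 10 points of a DMR, with limma adjusted p-values of 0.183 and 0.0614. H2-Aa, the I-A alpha chain gene, had 17.9%, 16.2% and 18.1% in saline, 17.6%, 20.3% and 17.3% in OVA and 16.96%, 21.4%, 24.03% and 14.6% in DSE mice, and its groups overlapped. H2-Ob, whose product restrains peptide loading, had 42.3%, 37.3% and 43.4% in saline, 35.3%, 32.6% and 35.1% in OVA and 37.0%, 40.9%, 32.2% and 43.2% in DSE mice. The OVA mice lay 6.58 points under saline there (limma adjusted p = 0.250) and the DSE mice overlapped both groups. H2-Oa, the partner of H2-Ob, had 19.2%, 22.2% and 18.0% in saline, 15.02%, 15.6% and 17.2% in OVA and 20.7%, 13.97%, 14.1% and 15.3% in DSE mice. The OVA mice were under the saline mice without overlap, with a difference of -3.69 points (limma adjusted p = 0.307), and the DSE mice overlapped both. H2-DMb2, a chain gene of the peptide-loading chaperone, had 34.9%, 31.5% and 28.7% in saline, 29.0%, 25.5% and 27.8% in OVA and 21.7%, 24.3%, 26.0% and 25.02% in DSE mice. All DSE mice were under all saline mice, with a difference of -7.54 points (limma adjusted p = 0.0598), and the OVA mice overlapped both groups.

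Of 72 class II windows, 1 was hyper and 1 hypo methylated in OVA vs. saline (1.39% each, background 4.83% and 2.60%), 0 hyper and 1 hypo methylated in DSE vs. OVA (background 0.888% and 0.699%), and 1 hyper and 0 hypo methylated in DSE vs. saline (background 5.02% and 3.09%). H2-DMa held 29 of the 72 windows, so the class II means and counts take in sequence of Brd2. The hypo methylated window of OVA vs. saline (chr17:34127001-34128000) belonged to H2-DMa but lay nearest to the start of Brd2. The hyper methylated window (chr17:34139001-34140000) covers the last exon of H2-DMa, which encodes a chain of the peptide-loading chaperone, and is centred at -3728 bp from the start of H2-DMb2. It had 31.5%, 26.8% and 31.99% in saline, 40.6%, 45.7% and 46.6% in OVA and 42.3%, 47.0%, 44.2% and 48.6% in DSE mice, from at least 1990 calls per mouse. Saline mice were below all others, by 13.97 points under OVA (limma adjusted p = 0.0299) and 15.3 points under DSE (limma adjusted p = 0.0133), and OVA and DSE mice overlapped. An intron window of H2-Eb1 (chr17:34312501-34313500) was the DMR of DSE vs. OVA, with 95.4%, 89.2% and 96.2% in OVA, 78.1%, 87.0%, 81.7% and 86.0% in DSE and 81.5%, 83.8% and 88.8% in saline mice. DSE vs. OVA gave -10.425 points there, with a limma adjusted p of 0.130.

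The antigen processing genes of the region, which make and load the peptides of class I molecules, had start sites of low methylation and DMRs of both signs inside the genes. The start site windows of Tap1 (shared with Psmb9), Psmb8 and Tapbp lay between 0.601% and 3.43% in every mouse and that of Tap2 between 4.16% and 6.93%. Of 54 windows, 3 were hyper and 3 hypo methylated with OVA against saline, 5.56% each against 4.83% and 2.60% of all windows, so the hyper methylated share was near the background. DSE vs. OVA had 0 DMRs (background 0.888% and 0.699%), and DSE vs. saline had 1 hyper and 6 hypo methylated (1.85% and 11.1%, background 5.02% and 3.09%). Tap1, a subunit of the peptide transporter, carried both signs. Over its exons 6 to 10 (chr17:34192001-34194000), 3 overlapping windows were 10.37 to 13 points higher in OVA than in saline mice, with limma adjusted p-values of at least 0.0531. Over its last exon (chr17:34196001-34197000), the level was 51.5%, 49.0% and 50.5% in saline, 42.0%, 38.6% and 40.6% in OVA and 39.1%, 35.5%, 37.7% and 38.0% in DSE mice. It fell by 10.0 points in OVA (limma adjusted p = 0.0438) and by 12.9 points in DSE mice (limma adjusted p = 0.0131), with no overlap between saline and the other groups. An intron window of Tap2 (chr17:34210001-34211000), the other transporter subunit, had 61.8%, 62.7% and 56.7% in saline, 52.1%, 49.5% and 45.6% in OVA and 43.8%, 47.1%, 48.6% and 45.4% in DSE mice. It was lower by 11.2 points in OVA (limma adjusted p = 0.0522) and fell by 14.1 points in DSE mice (limma adjusted p = 0.0167).

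The neighbourhood of Tnf differed most between saline and the other mice. It comprised the 44 windows of Tnf, Lta and Ltb, which encode tumor necrosis factor and both lymphotoxin chains, and of Lst1, Nfkbil1 and Aif1. Of these, 11 (25%) were hypo methylated DMRs of OVA vs. saline and 0 hyper methylated, limma called 10 lower and 0 higher, and the mice had no overlap in 27 (61.4%), against the backgrounds of 2.60%, 1.49% and 27.05% given above. In DSE vs. saline 14 (31.8%, background 3.09%) were hypo and 1 (2.27%, background 5.02%) hyper methylated. There limma called 14 lower (background 2.68%) and 0 higher (background 4.58%), and the mice did not overlap in 27 (61.4%, background 24.30%). In DSE vs. OVA 0 windows were DMRs (background 0.888% hyper and 0.699% hypo methylated) and 2 (4.55%, background 10.26%) had no overlap. The median difference over the 44 windows was -6.27 points in OVA vs. saline, -4.83 points in DSE vs. saline and -0.144 points in DSE vs. OVA, against 0.727, 0.729 and -0.0318 points over all windows. When each position was counted in only 1 window, 5 of 24 windows were hypo methylated in OVA and 7 of 24 in DSE mice against saline. Counted in the same way, the region had 21 and 27 of 836.

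In Tnf itself, 4 overlapping windows from the last exon to the start site (chr17:35200001-35202500) were hypo methylated in both comparisons with saline. The window over exons 3 to 4 (chr17:35200001-35201000) had 53.6%, 63.3% and 53.7% in saline, 43.8%, 35.5% and 38.6% in OVA and 38.6%, 43.4%, 41.3% and 38.1% in DSE mice. The means were 56.9% ± 5.59, 39.3% ± 4.23 and 40.4% ± 2.47. It fell by 17.4 points in OVA (SE of the difference of means 4.05, limma adjusted p = 0.0317) and by 16.1 points in DSE mice (SE 3.46, limma adjusted p = 0.0205), with no overlap with saline. DSE and OVA mice differed by 1.22 points (SE 2.74, limma adjusted p = 0.957) and overlapped. At the start site (chr17:35201501-35202500), from at least 2101 calls per mouse, the levels were 40.4%, 43.5% and 36.7% in saline, 32.6%, 29.9% and 25.6% in OVA and 30.2%, 25.6%, 29.8% and 28.1% in DSE mice. The OVA mice were lower by 10.53 points (limma adjusted p = 0.0601) and the DSE mice by 11.5 points (limma adjusted p = 0.0282). The next window upstream (midpoint at -494 bp from the start), which also covers the printed Tnf stretch, had group means of only 13.3% ± 2.23, 11.4% ± 3.54 and 10.97% ± 0.97, and its mice overlapped. The 2 windows over the far end of the last exon, at 2506 and 3006 bp, lay between 59.8% and 67.3% in every mouse and were no DMRs.

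Ltb and Lst1 were also lower. Upstream of Ltb, 3 overlapping windows (chr17:35192501-35194500) were hypo methylated in both comparisons with saline, the first of them outside the 44. The one centred 506 bp before its start, which covers most of the printed Ltb stretch, had 50.9%, 54.9% and 51.7% in saline, 41.4%, 40.4% and 32.8% in OVA and 42.3%, 42.6%, 42.3% and 42.3% in DSE mice. It fell by 13.9 points in OVA (limma adjusted p = 0.0309) and by 10.0 points in DSE mice (limma adjusted p = 0.0487). Here DSE mice lay above OVA mice, by 3.85 points (limma adjusted p = 0.663). The window at the Ltb start site had 31.2%, 28.0% and 27.6% in saline, 25.2%, 22.4% and 17.6% in OVA and 23.7%, 24.6%, 21.6% and 27.2% in DSE mice, with differences of -6.77 and -4.32 points from saline, and was no DMR. Lst1, a leukocyte gene beside the lymphotoxin genes, had 52.8%, 50.8% and 50.05% in saline, 39.6%, 38.1% and 35.5% in OVA and 39.7%, 37.0%, 42.3% and 40.4% in DSE mice at its start site (chr17:35188001-35189000). It fell by 13.5 points in OVA (SE 1.45, limma adjusted p = 0.0261) and by 11.5 points in DSE mice (SE 1.37, limma adjusted p = 0.0213). The adjoining window toward the gene body held the same calls. The OVA and DSE mice of Lst1 overlapped and differed by 1.94 points.

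Nfkbil1, which encodes an IkappaB-like protein, had 3 hypo methylated windows in introns with OVA and 4 with DSE, both against saline. In the one at chr17:35231001-35232000 the levels were 69.3%, 67.3% and 64.2% in saline, 56.7%, 54.2% and 49.0% in OVA and 57.9%, 53.0%, 53.6% and 49.5% in DSE mice, and saline did not overlap the others (limma adjusted p = 0.0394 and 0.0233). The single hyper methylated window of the neighbourhood, also in Nfkbil1, had 24 to 67 calls per mouse, overlapping mice and a limma adjusted p of 0.346. Aif1, a macrophage gene, averaged 48.6% ± 2.77, 43.8% ± 4.69 and 42.1% ± 2.57 over 3 windows, of which 0 were DMRs. At the Lta start site the saline mice spread from 62.1% to 94.6% at 93 to 261 calls per mouse over all groups, and a difference was not detectable. A window centred at -4423 bp from the start of Lta (chr17:35209501-35210500), outside the 44, had 52.7%, 61.2% and 51.5% in saline, 58.0%, 44.7% and 46.2% in OVA and 38.3%, 31.4%, 42.1% and 29.1% in DSE mice. The DSE mice were under all others, by 15.5 points under OVA (limma adjusted p = 0.260) and 20.6 points under saline (limma adjusted p = 0.0288).

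**Figure D4:**
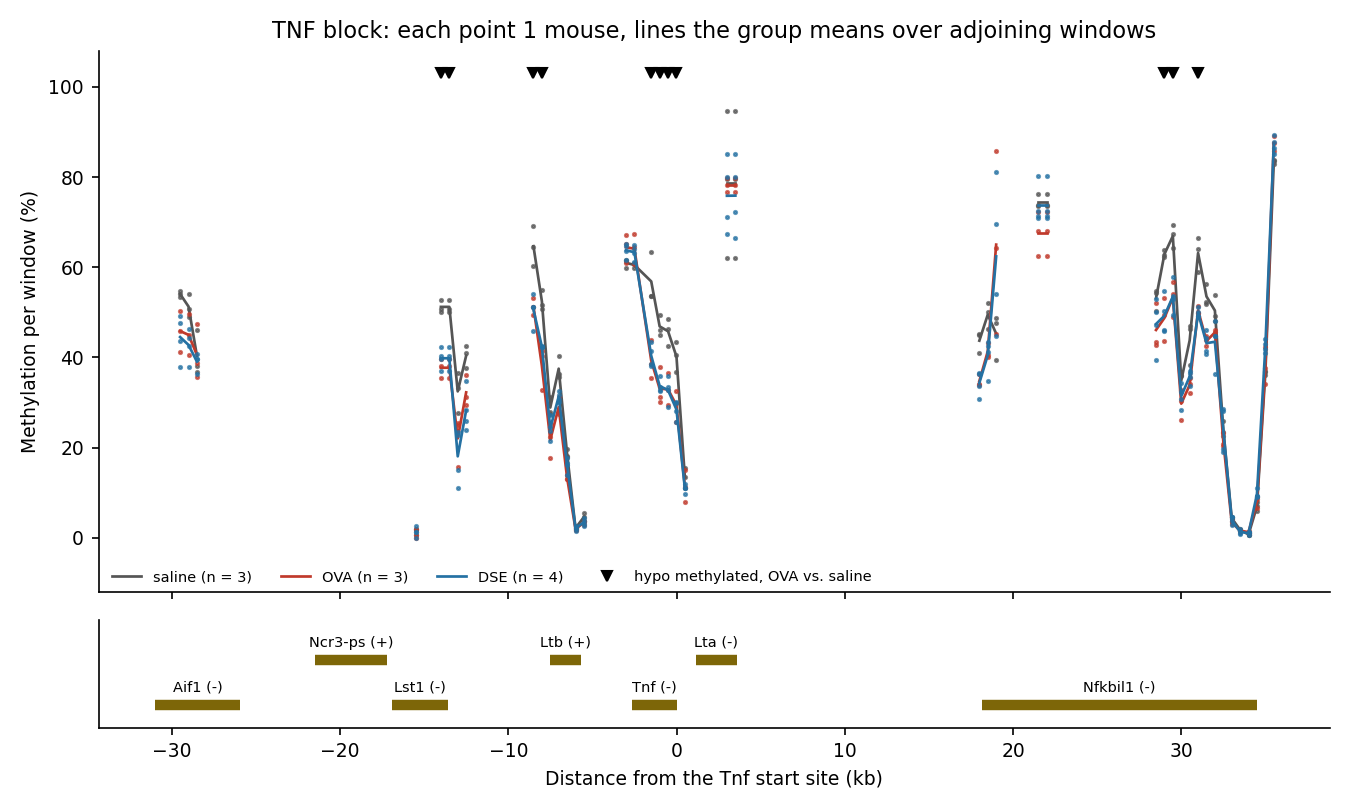
Methylation level (%) of each mouse (points) and group means (lines, over adjoining windows) in the 44 windows of the Tnf neighbourhood, by distance (kb) from the Tnf start site, with the genes and their strands below. The 11 windows called as hypo methylated in OVA vs. saline (triangles) lie in Lst1, before Ltb, in Tnf and in Nfkbil1, where the OVA and DSE lines run together under the saline line.

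Windows of marker genes of other cells also differed between the groups. In 127 windows of 13 leukocyte genes elsewhere in the genome (among them Ptprc, Spi1, Lck and Epx), 25 (19.7%, background 2.60%) were hypo and 10 (7.87%, background 4.83%) hyper methylated in OVA vs. saline, with means of 55.6% ± 0.21 in saline, 52.6% ± 0.29 in OVA and 52.0% ± 0.88 in DSE mice. The mice ranged from 55.4% to 55.8% in saline, 52.3% to 52.9% in OVA and 50.8% to 52.9% in DSE. In DSE vs. OVA 2 were hypo (1.57%, background 0.699%) and 0 hyper methylated, and in DSE vs. saline 25 were hypo (19.7%, background 3.09%) and 4 hyper methylated (3.15%, background 5.02%). In 186 windows of 11 lung epithelial and endothelial genes, 19 were hyper (10.22%, background 4.83%) and 7 hypo methylated (3.76%, background 2.60%) in OVA vs. saline and the means were 45.6% ± 0.22, 48.7% ± 1.26 and 47.7% ± 0.99. Most of these windows came from Cdh1 (62), Pecam1 (42) and Hopx (35). DSE vs. OVA had 0 hyper and 1 hypo methylated (0.538%, background 0.699%). DSE vs. saline had 15 (8.06%, background 5.02%) and 9 (4.84%, background 3.09%). The part of leukocytes and of epithelial and endothelial cells in the difference at Tnf was not tested. Of 172 windows of 17 antigen presentation genes outside the region, 2 were hyper (1.16%) and 9 hypo methylated (5.23%) in OVA vs. saline, against the same backgrounds. The counts were 1 (0.581%) and 0 for DSE vs. OVA and 3 (1.74%) and 12 (6.98%) for DSE vs. saline, against 0.888% and 0.699% and against 5.02% and 3.09% of all windows. The start sites of B2m, the light chain of class I molecules, and Nlrc5, their transactivator, averaged 3.01% ± 0.36 and 1.42% ± 0.13 in saline, 2.32% ± 0.09 and 1.11% ± 0.23 in OVA and 3.74% ± 0.37 and 1.61% ± 0.41 in DSE mice. The start site of Ciita, the transactivator of class II genes, was not analysed here.

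Of the complement genes, C2 was higher in OVA and DSE than in saline mice. Of 58 windows of complement and heat shock genes, 6 (10.34%, background 4.83%) were hyper methylated in OVA vs. saline and 0 hypo methylated. DSE vs. saline gave 5 (8.62%, background 5.02%) and 0 and DSE vs. OVA 1 (1.72%, background 0.888%) and 0, and limma called 2, 6 and 0 higher in these comparisons. The median difference of OVA vs. saline was 1.91 points, with 84.5% of the windows higher, against 61.0% of all windows. All 6 lay in C2, which encodes the protease of the classical pathway convertase. At its start site (chr17:34881501-34882500) the levels were 31.6%, 28.1% and 35.4% in saline, 46.8%, 52.5% and 50.5% in OVA and 48.8%, 40.7%, 49.9% and 52.8% in DSE mice. Saline mice were below all others, by 18.1 points under OVA (SE 2.68, limma adjusted p = 0.0287) and 16.8 points under DSE (SE 3.34, limma adjusted p = 0.0200). In the overlapping window 500 bp upstream, which covers the printed C2 stretch, they were 27.4%, 20.9% and 20.6%, then 41.4%, 45.9% and 48.6%, then 44.5%, 33.3%, 45.6% and 47.4%. This was 21.8 points higher in OVA (limma adjusted p = 0.0236) and 20.2 points higher in DSE mice (limma adjusted p = 0.0151) than in saline mice, and DSE and OVA mice overlapped in both windows.

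The other complement start sites were not DMRs. Cfb, which encodes the alternative pathway counterpart of C2, averaged 33.4% ± 1.40, 38.3% ± 2.37 and 38.3% ± 6.44, the saline and OVA mice did not overlap, and the difference was 5.07 points (limma adjusted p = 0.455). C4a averaged 74.1% ± 3.38, 79.96% ± 2.52 and 81.5% ± 1.71 and C4b 66.2% ± 4.42, 67.6% ± 4.44 and 66.2% ± 2.89. The DMR of DSE vs. OVA in this class (chr17:34822501-34823500) lay in exons 1 to 3 of C4a, had only 39 to 106 calls per mouse and held copied stretches over 41.2% of its length. The heat shock genes Hspa1a and Hspa1b, which encode inducible HSP70 chaperones, lay between 0.927% and 1.70% at their start sites in every mouse, although these windows are largely copies of each other (68.3% and 77.4%).

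Further DMRs lay in class III genes of other functions and between the classes. Zbtb12, a zinc finger gene, had 79.4%, 80.1% and 80.8% in saline, 68.1%, 62.5% and 63.6% in OVA and 64.6%, 63.7%, 66.6% and 63.4% in DSE mice over its second exon (chr17:34896001-34897000), from at least 1781 calls. It fell by 15.2 points in OVA (SE 1.78, limma adjusted p = 0.0198) and by 15.6 points in DSE mice (SE 0.825, limma adjusted p = 0.00819). Notch4, a receptor of endothelial cells, had 16.9%, 17.2% and 16.2% in saline, 24.7%, 29.8% and 30.1% in OVA and 23.6%, 22.4%, 26.2% and 22.7% in DSE mice before its start (chr17:34563501-34564500). It rose by 11.5 points in OVA mice (limma adjusted p = 0.0227), and DSE mice, 6.76 points above saline (limma adjusted p = 0.0347), lay between the saline mice and most OVA mice, although DSE and OVA did not differ by the test (limma adjusted p = 0.480). Slc44a4, a choline transporter-like gene, was 17.2 points higher in DSE than in saline mice at its start (limma adjusted p = 0.0127).

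Larger single differences were seen in BC051142 and Wdr46. BC051142 (chr17:34438501-34439500), a gene beside butyrophilin-like genes, had 83.0%, 83.2% and 75.9% in saline, 60.5%, 53.2% and 66.1% in OVA and 65.0%, 59.7%, 63.5% and 60.1% in DSE mice, a fall of 21.0 points in OVA (limma adjusted p = 0.0224) and 18.1 points in DSE mice (limma adjusted p = 0.0129). Wdr46 (chr17:33946501-33947500) was lower by 24.4 points in OVA mice, with no overlap, but its limma adjusted p was 0.0982 and 1 DSE mouse lay among the saline mice. In the other direction, exon 13 of the GABA receptor gene Gabbr1 (chr17:37063001-37064000) had 41.5%, 45.7% and 59.0% in saline and 78.3%, 71.1% and 70.6% in OVA mice, 24.7 points higher (limma adjusted p = 0.0397), and the DSE mice, from 57.0% to 72.4%, overlapped both groups. Trim39, a ubiquitin ligase gene, fell by 11.9 points in OVA (limma adjusted p = 0.0380) and 14.9 points in DSE mice (limma adjusted p = 0.0134) over exon 5 (chr17:36262001-36263000).

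In a few windows DSE mice lay further from saline than OVA mice did, although the limma adjusted p of DSE vs. OVA was above 0.05 in each. Exon 5 of Ddx39b, an RNA helicase gene (chr17:35246001-35247000), had 45.4%, 44.1% and 39.6% in saline, 37.5%, 38.1% and 36.2% in OVA and 30.6%, 28.4%, 27.9% and 31.1% in DSE mice. It was 5.56 points lower in OVA (limma adjusted p = 0.194) and fell by 13.3 points in DSE mice against saline (limma adjusted p = 0.0122), and DSE vs. OVA gave -7.70 points (limma adjusted p = 0.188) without overlap. The window before Ddah2, which encodes a member of the dimethylarginine hydrolase family (chr17:35058001-35059000), had 10.502%, 10.9% and 10.204% in saline, 13.5%, 12.7% and 13.04% in OVA and 15.5%, 16.0%, 16.6% and 16.9% in DSE mice. No groups overlapped there, and DSE was 5.67 points above saline (limma adjusted p = 0.0131). Atat1, a tubulin acetyltransferase gene, was 8.93 points lower in OVA (limma adjusted p = 0.0421) and 14.3 points lower in DSE than in saline mice (limma adjusted p = 0.0104) over exons 9 to 10.

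DSE vs. OVA gave 23 DMRs, of which 5 passed limma, all of them higher in DSE mice. Over all windows, 887 of the 6694 DMRs of this comparison passed limma. Mdc1 (chr17:35840501-35841500), whose printed stretch lies in this window, had 14.1%, 19.4% and 16.9% in saline, 9.95%, 11.02% and 10.8% in OVA and 33.0%, 28.3%, 31.6% and 19.7% in DSE mice, from at least 1939 calls. The DSE mice were above all others, by 17.8 points over OVA (SE 3.01, limma adjusted p = 0.0238) and 11.6 points over saline (limma adjusted p = 0.0446). Zfp57, a zinc finger gene that keeps imprinted methylation, had 15.1%, 22.6% and 18.4% in saline, 14.3%, 21.9% and 17.5% in OVA and 32.5%, 33.6%, 33.0% and 32.2% in DSE mice over exon 2 (chr17:37001501-37002500), 14.5 points above OVA (limma adjusted p = 0.0478). The non-coding gene Gm32655 (chr17:35970001-35971000) had 12.8%, 17.4% and 18.5% in saline, 8.45%, 9.29% and 10.53% in OVA and 25.4%, 25.6%, 29.1% and 29.1% in DSE mice, 18.0 points above OVA (limma adjusted p = 0.0109). Gm6623, beside class I-like genes (chr17:36180501-36181500), had 46.8%, 47.5% and 43.7% in saline, 44.2%, 43.7% and 40.4% in OVA and 61.2%, 57.9%, 66.3% and 70.9% in DSE mice, 21.3 points above OVA (limma adjusted p = 0.0306). The window upstream of Mog printed above had 7.20%, 9.94% and 10.402% in saline, 6.95%, 8.52% and 11.3% in OVA and 17.4%, 21.5%, 24.8% and 18.1% in DSE mice, 11.6 points above OVA (limma adjusted p = 0.0434). The window before it, which overlaps it, was 5.98 points higher (limma adjusted p = 0.0369), and exons 1 to 3 of Gm32252, upstream of H2-Q6, were 7.89 points higher (limma adjusted p = 0.0201), both under the 10 points of a DMR. In these 5 windows each DSE mouse lay above each saline and OVA mouse. In Gm32655 the OVA mice were also 6.99 points under the saline mice (limma adjusted p = 0.0455).

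**Figure D5:**
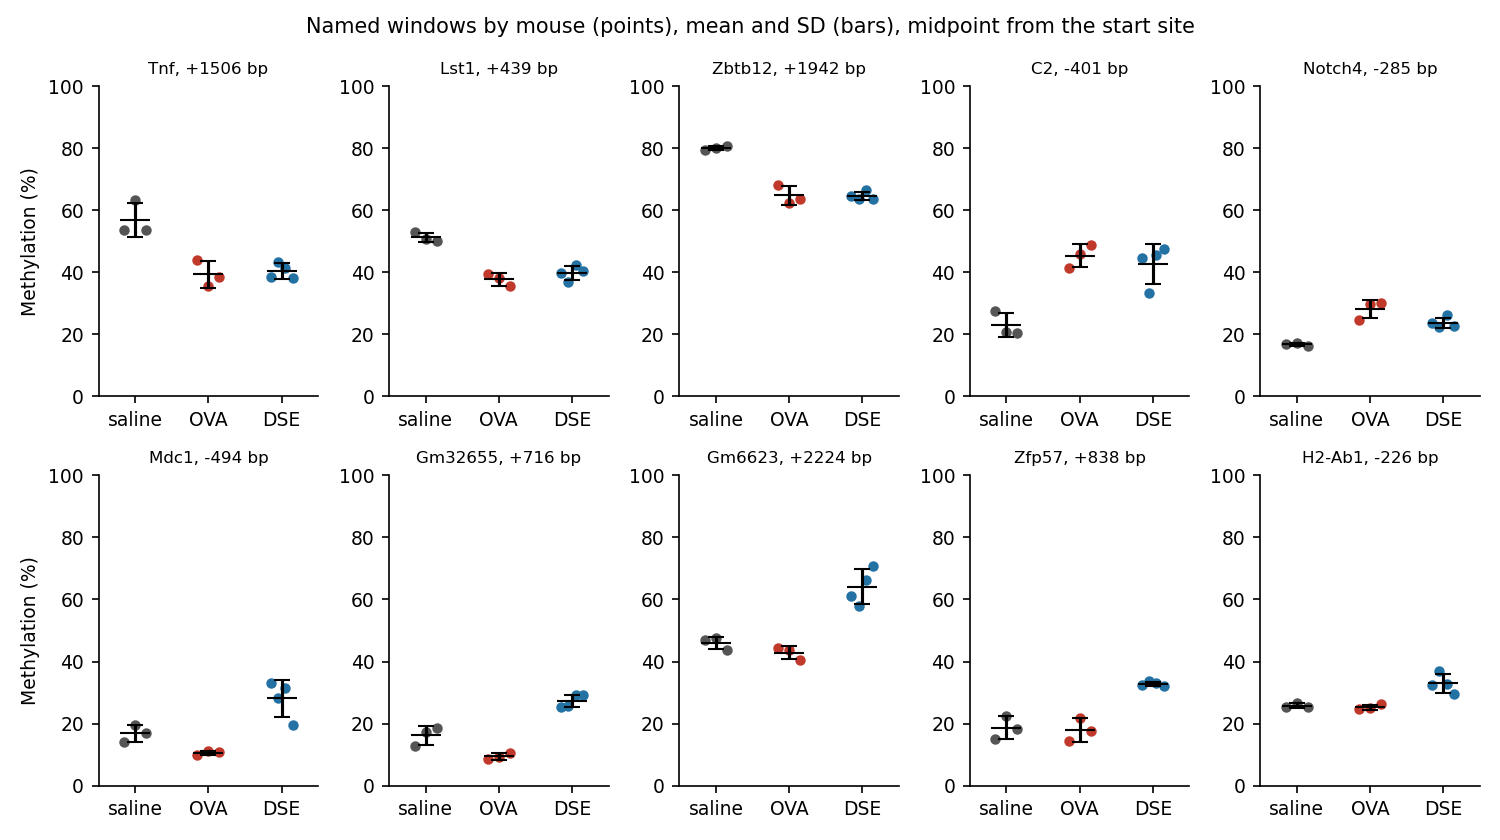
Methylation level (%) of each mouse, with mean and SD, in 10 named windows, with the distance of the window midpoint from the start site of the gene. In Tnf, Lst1 and Zbtb12 the saline mice lie above and in C2 and Notch4 below the OVA and DSE mice, and in Mdc1, Gm32655, Gm6623, Zfp57 and H2-Ab1 the DSE mice lie above the saline and OVA mice.

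These windows had features of their own in the files. Of the 16 hyper methylated DMRs of DSE vs. OVA, 68.8% held a copied stretch, against 22.5% of the region, and 5 were left without such windows. Their depth also differed by group: calls as a share of the mouse's total were 1.44 times as many in DSE as in OVA mice in the median of the 16 windows and 1.46 times in the 7 hypo methylated ones, against 0.961 in the median of the region. The ratio was 1.23 at Mdc1, 1.58 at Zfp57, 1.43 at Gm32655 and at the window upstream of Mog, and 1.34 at Gm6623. A window level is weighted by where its calls lie, and the part of depth in these differences was not tested. By pooled calls the whole region stood at 25.2% in saline, 25.03% in OVA and 26.9% in DSE mice, whereas the means over windows of OVA and DSE mice were within 1 SD of each other. Pooled levels were also highest in DSE mice outside the region. They were 36.4%, 36.6% and 39.0% over all windows and 34.8%, 35.9% and 38.1% over the rest of chromosome 17, in the same order.

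In 3 windows a DMR of OVA vs. saline was a DMR of the opposite sign in DSE vs. OVA. The OVA level is added in the first difference and subtracted in the second, so error in it pulls the signs apart. Whether the extract moved these windows back toward saline was therefore not tested. In a window over the last exon of Csnk2b and the first of Ly6g5b (chr17:35115501-35116500) the levels were 41.3%, 36.1% and 35.3% in saline, 53.3%, 55.4% and 45.8% in OVA and 40.8%, 30.8%, 48.4% and 32.4% in DSE mice. The OVA mice were 14.003 points above saline (limma adjusted p = 0.127) and DSE mice 14.8 points under OVA (limma adjusted p = 0.307), with 1 DSE mouse among the OVA mice. The other 2 windows overlap and hold the same calls, in an intergenic stretch (chr17:36763501-36764500). They had 28.8%, 25% and 32.2% in saline, 14.6%, 14.4% and 6.03% in OVA and 25.9%, 15.2%, 23.8% and 24.7% in DSE mice. The level fell by 17.03 points from saline to OVA mice (limma adjusted p = 0.0433) and the DSE mice were 11.6 points above OVA (limma adjusted p = 0.262), without overlap in either comparison.

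Across the region, the windows called in any comparison, 149 in all, were poorer in CpGs and of middle methylation. Their median was 14 CpGs against 17 in the region, and 8.05% of them lay under 20% in saline against 35.5%. Windows called lower in OVA mice had a saline median of 58.7% and those called higher one of 37.6%. Of the DMRs of OVA vs. saline, 37.0% touched a coding exon and 35.9% were intergenic, against 46.2% and 24.2% of the region. A level near 0% cannot fall by 10 points, so the choice of DMRs sets part of these shares.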

How the data were processed

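Lung DNA of 3 saline, 3 OVA and 4 DSE mice was captured, bisulfite converted and sequenced in pairs. The deposited table holds counts of calls, covered, methylated and unmethylated, per mouse and 1000 bp window, laid out every 500 bp, with at least 10 calls per mouse. The submitters' processing notes name cutadapt 1.10, Bismark 0.19.0 and methylKit 1.0.0, and the study's methods name other versions. The build is mm10. Reads were not counted by molecule here, so intervals cover counting error only.

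Here windows with at least 20 calls in each mouse were kept. Per window, a logistic model of the counts gave a likelihood ratio test on pooled calls, with Benjamini-Hochberg adjustment over all 421759 windows (Python 3.11.15, scipy 1.17.1). limma 3.58.1 (R 4.3.3) was fitted to log2((methylated + 1)/(unmethylated + 1)) over the 10 mice in 1 fit, with the same adjustment. Both were run on simulated counts, with counting error only and with spread between mice. A low number of false calls was required only of the likelihood ratio test under counting error only. Each mouse is a separate animal. Replicates of a group differed by more than sampling noise, with a chi-square per degree of freedom of 2.68 to 3.81, so no library was counted again. RefSeq (GRCm38.p6) gave genes and sequences, and a window belongs to a gene if it touches it or the 1000 bp before it. Copied stretches of 100 bases were counted on the reference.

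Named windows were those within 500 bp of listed start sites, up to 10 per comparison with the largest difference and no overlap, up to 10 with the smallest limma p, and those called in opposite directions. The windows given for H2-M5, H2-T24 (intron), H2-T-ps exons 3 to 4, H2-Eb1 (intron), Tap1 exons 6 to 10, Tap2 (intron), Nfkbil1 and Aif1 were chosen after their values were seen. The members and gene lists were chosen with earlier results of these data known. Alternatives were the call minimum, an F test with overdispersion, limma alone, the size of the difference, windows without overlap, unweighted or scaled calls, a replicate block and leaving out each mouse.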

Additional observations from a re-analysis of the deposited data

Results flagged for a closer look

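A mouse standing apart from its group of 4 DSE mice was looked for in 85 values. These were the levels of the named windows, some of which overlap, and the means of the region and its gene classes. Among the 85, 3 had a gap to the nearest mouse above Dixon's limit for 4 values, and chance gives about 1 in 20. At the H2-Eb1 start site DSE replicate 4 had 35.1% where the other DSE mice had 39.3% to 40.1% (ratio 0.848). In the window before Ltb, DSE replicate 2 had 42.6% where the others all lay at 42.3%, a gap that is far within counting error although its ratio was 0.929. In the window of Gm6659 (chr17:36159501-36160500), DSE replicate 1 had 79.5% and the others 72.9% to 73.5% (ratio 0.902). That window was 24 points higher in DSE than in OVA mice, whose own values ran from 35.0% to 62.0%, at 40 to 244 calls per mouse, and its limma adjusted p was 0.112.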

How the results depend on the processing

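The numbers of called windows depended most on how the spread between mice entered. With an F test that estimates overdispersion, 0 windows were hyper and 0 hypo methylated in each comparison, and 0 of all windows passed an adjusted p of 0.01, whereas at an unadjusted F test p under 0.05 with at least 10 points OVA vs. saline had 40 and 39, DSE vs. OVA 17 and 8 and DSE vs. saline 43 and 52. With limma at an adjusted p under 0.05 and at least 10 points, the same comparisons gave 16 hyper and 28 hypo methylated windows, 5 and 0, and 24 and 40, and at an unadjusted p 54 and 45, 21 and 10, and 56 and 57. At a limma adjusted p under 0.01 there were 0 and 0, 0 and 0, and 0 and 2, and with a pseudocount of 0.5 there were 15 and 28, 4 and 0, and 24 and 39. Asking for 20 points left 3 and 2, 3 and 0, and 2 and 2. The 836 windows that do not overlap gave 25 and 21, 7 and 3, and 27 and 27, from fewer windows tested. Leaving out windows with copied stretches, an alternative added after seeing the data, left 5 of the 16 hyper methylated windows of DSE vs. OVA and moved no other count by over 1.5 times. Apart from the adjusted F test, shares over all windows are not given for these alternatives. The counts therefore show how the calls of the region moved, not whether the region differed from the genome.

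Leaving out each mouse gave 48 to 57 hyper and 41 to 59 hypo methylated windows for OVA vs. saline, 13 to 21 and 7 to 11 for DSE vs. OVA, and 40 to 70 and 51 to 71 for DSE vs. saline. The 11 hypo methylated windows of DSE vs. OVA, against 7, came without OVA replicate 2. Mice with the same replicate number did not deviate together (correlations of -0.0273 to 0.0785), so the numbers do not pair them. A replicate block gave 48 and 44, 16 and 9, and 44 and 51 windows, all within 1.5 times. A minimum of 50 calls or none, unweighted levels and scaled calls also stayed within 1.5 times.

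Mean differences of regions moved when all calls were pooled, which gives deep windows more weight, and some changed sign. Pooled, the region gave -0.216, 1.86 and 1.65 points in the 3 comparisons, in the order above, genes between the classes -0.652, 2.74 and 2.09, and windows without a gene -0.386, 1.81 and 1.43. Class I gave 1.05 in DSE vs. OVA and 1.53 in DSE vs. saline (0.755 and 1.43 over windows that do not overlap), antigen processing 0.460 and -0.174, and other class III genes 1.41 in DSE vs. saline. Complement and heat shock genes gave 0.629 for OVA vs. saline and 2.88 for DSE vs. OVA. All windows of the genome, pooled, stood at 36.4% in saline, 36.6% in OVA and 39.0% in DSE mice, so higher pooled levels in DSE mice were not particular to the region. The cause was not tested.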

Other observations

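Of the 1663 windows, 77 held the same calls as the window before them, so a DMR and its neighbour can be 1 measurement. The windows called lower with OVA than with saline merged to 24 stretches, the longest of 4 windows over Tnf, and those of DSE vs. saline to 29, the longest of 6 windows around Lst1. In OVA vs. saline, 20.5% of the hypo and 33.3% of the hyper methylated windows were within 1000 bp of a start site, against 43.3% of the region. The shares were 32.8% and 42.3% in DSE vs. saline, and 0% of 7 and 43.75% of 16 windows in DSE vs. OVA. Hyper methylated windows of both DSE comparisons were thus near the share of the region.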
